A study of Mus musculus with 10 samples.

Results

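The 10 genes described here, Mup1, Mup2, Mup3, Mup7, Mup10, Mup13, Mup15, Mup17, Mup20 and Mup21, encode major urinary proteins (MUPs) of the mouse. They were picked by gene symbol from 49 genes and pseudogenes with a Mup symbol, in a table of 55421 gene identifiers. Those symbols were selected on their measured values in these same livers, in the contrasts described here. The members' differences between groups are therefore given as a description, with their standard errors (SE) and with no test.

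RNA-seq was performed on poly(A) RNA from whole liver of 10 male mice in 3 groups. The H3.3 KO group (n = 4) carried floxed alleles of both genes for the histone variant H3.3 (H3f3a fl/fl, H3f3b fl/fl) and received AAV8 Tbg-Cre, an adeno-associated virus whose Tbg promoter drives Cre recombinase in hepatocytes. One kind of control was wildtype mice given the same Cre virus (WT Cre, n = 3), and the other was H3f3a fl/fl H3f3b fl/fl mice given an AAV8 virus with a multiple cloning site in place of Cre (MCS, n = 3). Mice received virus at an age of 6 months and were examined 3 weeks after. For floxed animals the labels disagree, with HIRA fl/fl given as genotype and H3f3a fl/fl H3f3b fl/fl in the titles. In the H3.3 KO livers H3f3a stood at 16.0, 18.7, 16.0 and 19.0 CPM (counts scaled to library size), against 59.9 to 63.7 CPM over the 6 controls, and Hira itself was not called (mean 6.51 CPM in H3.3 KO, 7.13 in WT Cre and 7.18 in MCS). The split of the 6 controls into WT Cre and MCS rests on matching the numbers of the control columns to the numbers in the library names. Wildtype and floxed animals differ in genotype as well as in virus, so those factors cannot be told apart between the controls.

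MUPs are small proteins of the lipocalin family, barrel-shaped carriers that hold volatile pheromones. Hepatocytes make them in large amounts, secrete them into the blood, and the kidney passes them into the urine, where they serve as scent marks. In liver their transcription is known to respond to growth hormone pulses, androgens, thyroid hormone and feeding, and adult males make more than females. The genes arose by repeated duplication, and many copies are nearly identical.

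All 10 members lie on the minus strand of chromosome 4 (mm10), inside a block of 2.19 megabases that holds 48 of the 49 Mup symbols. From the centromeric side their annotated positions are Mup7 (chr4:60066469-60070475), Mup2 (chr4:60135932-60154289), Mup1 (chr4:60498012-60501960), Mup10 (chr4:60578260-60582199), Mup13 (chr4:61224307-61228286), Mup15 (chr4:61435790-61439743), Mup17 (chr4:61591929-61595871), Mup20 (chr4:62050234-62054158), Mup3 (chr4:62083476-62087342) and Mup21 (chr4:62147932-62150863). Each is annotated as protein coding, and none overlaps another annotated gene.

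Most members are nearly identical in coding sequence, so that a read from one can match several. To show how alike they are, each line holds 120 coding bases from one transcript per gene (GENCODE vM21 on GRCm38), the bases that align to positions 201 to 320 of the Mup17 coding sequence counted from the A of its start codon. Capitals mark bases that differ from Mup17.
Mup17: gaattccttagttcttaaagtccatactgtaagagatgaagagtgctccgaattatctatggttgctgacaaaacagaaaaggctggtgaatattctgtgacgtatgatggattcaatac
Mup13: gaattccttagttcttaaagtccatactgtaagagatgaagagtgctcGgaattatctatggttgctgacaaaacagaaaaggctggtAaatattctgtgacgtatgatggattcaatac
Mup10: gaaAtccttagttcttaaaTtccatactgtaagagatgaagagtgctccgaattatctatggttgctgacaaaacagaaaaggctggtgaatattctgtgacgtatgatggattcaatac
Mup15: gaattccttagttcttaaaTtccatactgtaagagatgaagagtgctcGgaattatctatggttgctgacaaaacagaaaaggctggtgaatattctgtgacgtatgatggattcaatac
Mup20: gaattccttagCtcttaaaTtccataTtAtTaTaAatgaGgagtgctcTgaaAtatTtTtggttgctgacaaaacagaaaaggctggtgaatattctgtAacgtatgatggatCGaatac
Mup21: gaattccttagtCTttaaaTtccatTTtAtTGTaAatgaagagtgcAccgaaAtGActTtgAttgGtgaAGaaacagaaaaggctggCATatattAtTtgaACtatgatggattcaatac
Mup3: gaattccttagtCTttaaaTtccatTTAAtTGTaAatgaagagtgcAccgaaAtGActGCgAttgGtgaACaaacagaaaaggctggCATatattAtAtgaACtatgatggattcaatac
Mup7 matched Mup17 at every base of this stretch, and Mup1 and Mup2 matched Mup15. Mup10, Mup13 and Mup15 each differed from Mup17 at 2 bases, Mup20 at 15, Mup21 at 26 and Mup3 at 28. Over the whole coding sequence Mup2 and Mup15 differed at only 2 of 540 bases (99.63% identity), whereas Mup3 was 82.97% identical to Mup17 and 94.75% identical to Mup21.

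Uniqueness along the transcript followed the same division. Every 100-base word of each member's annotated transcripts was looked up, on both strands, in all 141767 annotated transcripts. Of these words 97.77% occurred in no other gene for Mup3, 95.5% for Mup21 and 61.16% for Mup20. The share was 44.32% for Mup1, 40.58% for Mup17, 26.63% for Mup10, 24.45% for Mup2, 23.87% for Mup7 and 16.36% for Mup13. For Mup15 it was 2.66%, and at 75 bases Mup15 had no word of its own. Reads of Mup3 and Mup21 can thus be placed by sequence almost anywhere along the transcript, and reads of Mup15 almost nowhere. At 100 bases no word of any member occurred outside the Mup genes and pseudogenes.

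The deposited files hold both counts and FPKM (fragments per kilobase of transcript, scaled to depth), and the 2 tables treat the copies differently. To set them side by side, each deposited FPKM was divided by a level derived from the count and the length of the longest transcript, and scaled so that the median of 12529 genes was 1. For Mup3 this quotient was 1.02 (median over 10 livers, range 0.959 to 1.05). For Mup21 it was 1.59, for Mup7 2.89 and for Mup20 3.73. It reached 9.45 for Mup17, 10.5 for Mup15, 10.7 for Mup1, 33.9 for Mup2, 122 for Mup13 and 143 for Mup10, so for these 6 the count table held a small part of the signal that the FPKM table assigned. How either table treated reads that match several places is not given in the sources used here, so the cause was not tested. Differences between groups are therefore given from both tables for every member.

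**Figure D1:**
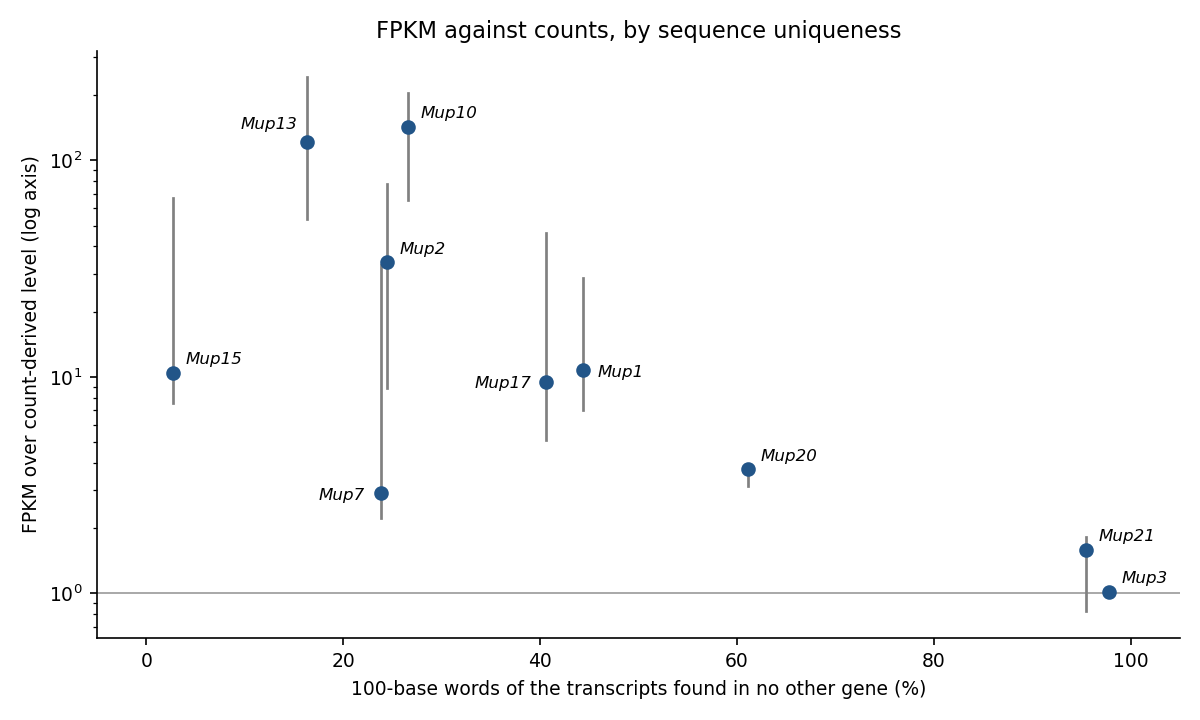
Deposited FPKM divided by a count-derived level (y axis, log scale, 1 is the median gene) against the percent of 100-base transcript words found in no other gene (x axis) for the 10 members. Points are medians over 10 livers and lines span the lowest to the highest liver, with Mup3 at 1.02 and Mup10 at 143.

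Per length, in FPKM, the order of the members differed between groups. In MCS livers Mup3 was highest (9618 ± 1020 FPKM, SD, n = 3), followed by Mup20 (4404 ± 58.2) and Mup7 (4031 ± 1650), which overlapped each other. The other 7 stood between 736 FPKM (Mup13) and 1500 FPKM (Mup10). In WT Cre livers Mup20 (6217 ± 1037 FPKM, SD, n = 3) and Mup3 (5515 ± 447) overlapped, and Mup10 followed at 698 ± 176. In H3.3 KO livers Mup20 led with 4243 ± 1882 FPKM (SD, n = 4), Mup3 was at 902 ± 176, and Mup21 (297 ± 134) and Mup10 (276 ± 105) overlapped below it. At the low end Mup15, Mup17, Mup1, Mup13 and Mup2, from 52.0 to 76.2 FPKM on average in H3.3 KO livers, had ranges over livers that overlapped. Within each H3.3 KO liver, however, Mup15 was below Mup1, Mup1 below Mup13 and Mup13 below Mup2.

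The summed signal of the members was low in every H3.3 KO liver. Together the members took 0.680%, 0.729% and 0.670% of all counts in the WT Cre livers and 1.11%, 1.22% and 1.42% in the MCS livers. In the H3.3 KO livers they took 0.152%, 0.248%, 0.274% and 0.237%. No H3.3 KO liver reached any control, and no WT Cre liver reached any MCS liver. Summed to 1 feature and fitted with all other genes (edgeR), the members were lower by 1.72 on the log2 scale than WT Cre (SE 0.18) and by 2.72 than MCS (SE 0.18), and WT Cre was lower than MCS by 1.00 (SE 0.19). Summing all 49 Mup symbols, which does not depend on how counted reads were split among the copies but leaves out any that were not counted, gave -1.65 (SE 0.18), -2.71 (SE 0.18) and -1.06 (SE 0.19). Summed FPKM gave smaller log2 ratios for H3.3 KO, -1.16 against WT Cre and -2.02 against MCS. In bulk tissue fewer hepatocytes and less RNA per hepatocyte cannot be told apart.

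**Figure D2:**
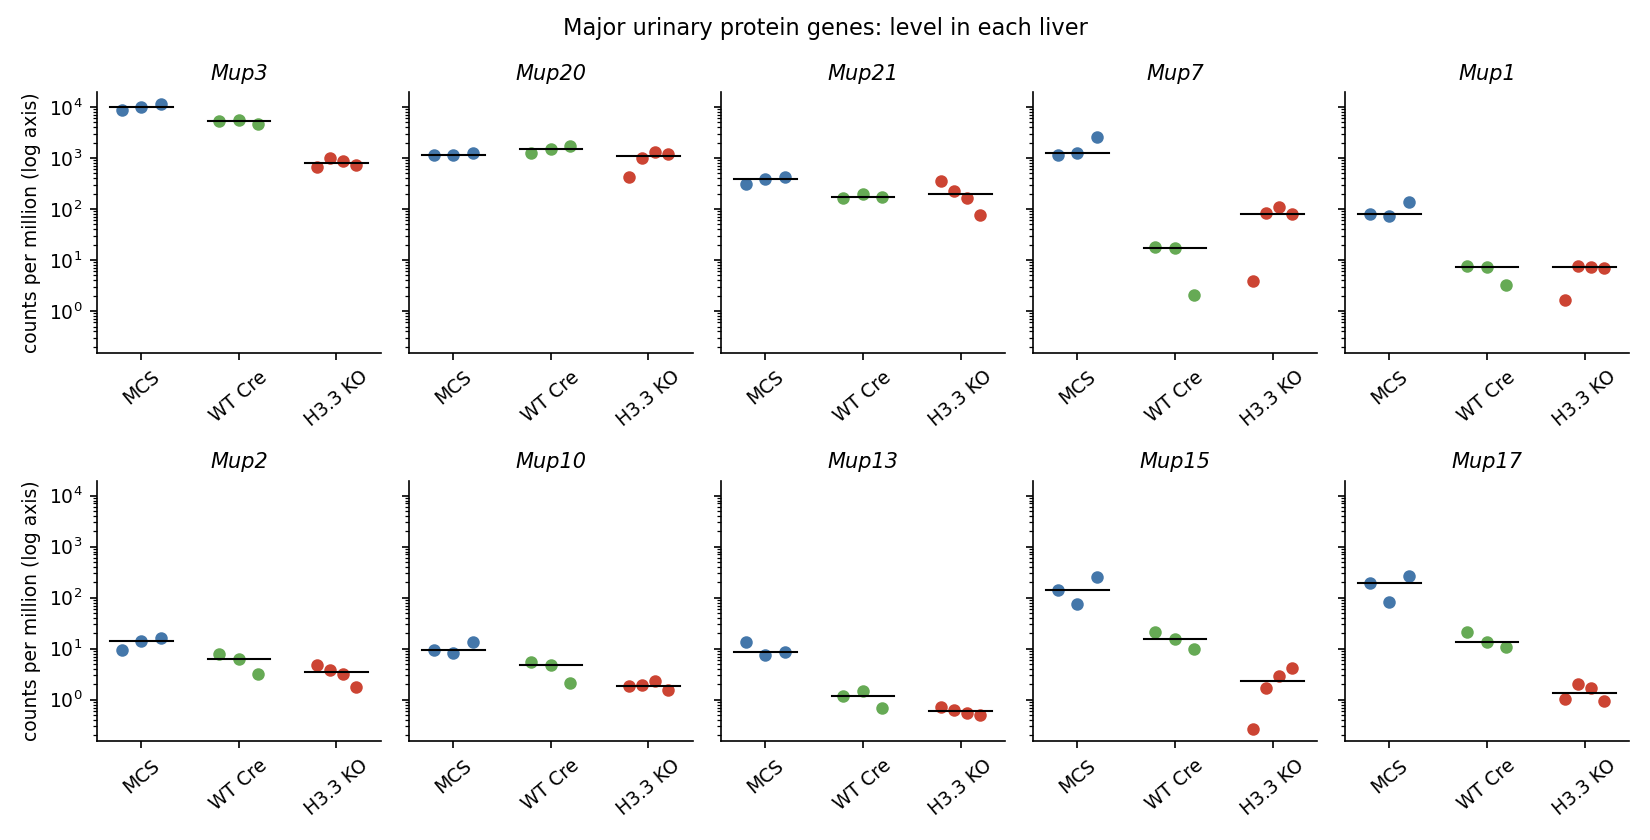
CPM (y axis, log scale, TMM-scaled) of each member in each liver, with points for livers and bars for group medians, for MCS (n = 3), WT Cre (n = 3) and H3.3 KO (n = 4). Mup3 in H3.3 KO livers lies between 679 and 986, below all controls, whereas Mup20 in H3.3 KO lies between 431 and 1298, with 2 of 4 livers below all controls.

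Mup3, one of the 2 members with almost entirely unique sequence, carried 70.5% to 78.3% of the members' counts in WT Cre and 69.9% to 76.9% in MCS livers. In H3.3 KO livers it carried 34.4% to 45.7%, less than Mup20 in 3 of 4. The H3.3 KO livers stood at 679, 986, 894 and 731 CPM. The WT Cre livers stood at 5449, 5550 and 4611 CPM, and the MCS livers at 8692, 10186 and 11557 CPM. The 3 groups did not overlap. The highest H3.3 KO liver (986 CPM) lay far below the lowest control liver (4611 CPM). Between the kinds of control the gap (5550 to 8692 CPM) was little wider than the range within MCS (8692 to 11557 CPM). The fitted log2 fold change of H3.3 KO was -2.66 (SE 0.16) against WT Cre, or 6.32-fold lower, and -3.62 (SE 0.17) against MCS, or 12.3-fold lower. WT Cre was lower than MCS by 0.96 (SE 0.17) on the log2 scale. From mean FPKM the log2 ratios were -2.61, -3.41 and -0.80, close to those from counts.

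Mup20 encodes darcin, the male pheromone protein of urine that attracts females. Its H3.3 KO livers stood at 431, 1006, 1298 and 1226 CPM. The WT Cre livers were at 1265, 1507 and 1727 CPM and the MCS livers at 1173, 1154 and 1232 CPM. H3.3 KO replicates 1 and 2 were below every control, replicate 3 lay within the WT Cre range and replicate 4 within the MCS range. The log2 fold change was -0.60 (SE 0.30) against WT Cre and -0.26 (SE 0.30) against MCS, and without H3.3 KO replicate 1 these were -0.35 and -0.01. WT Cre was higher than MCS by 0.34 (SE 0.32), and each WT Cre liver was above each MCS liver. From mean FPKM the log2 ratios were -0.55 for H3.3 KO against WT Cre, -0.05 against MCS and 0.50 for WT Cre against MCS. Mup20 thus differed from Mup3, its neighbour in the cluster, and the ratio of Mup3 to Mup20 counts was 2.67 to 4.31 in WT Cre, 7.41 to 9.38 in MCS and 0.596 to 1.58 in H3.3 KO livers.

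Mup21, at the telomeric end and almost entirely unique in sequence, showed no common direction in CPM. Its H3.3 KO livers stood at 361, 225, 164 and 75.7 CPM, a wider spread than in either control. The WT Cre livers were at 164, 202 and 171 CPM and the MCS livers at 314, 392 and 432 CPM. In CPM H3.3 KO replicate 1 was thus as high as the MCS livers, and replicate 4 was below all controls. In FPKM, however, every H3.3 KO liver (140 to 460) was below every MCS liver (709 to 869). The H3.3 KO livers overlapped WT Cre (436 to 498 FPKM). The log2 fold change was 0.21 (SE 0.42) against WT Cre and -0.88 (SE 0.41) against MCS. Without H3.3 KO replicate 1 the values were -0.21 and -1.29, so that 1 liver set the sign against WT Cre. From mean FPKM the log2 ratios were -0.62 and -1.45, and the FPKM quotient of Mup21 was 0.826 to 1.12 in H3.3 KO livers but 1.58 to 1.81 in controls. Mup21 is therefore given with no direction against WT Cre.

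Mup7 was the member with the largest gap between the kinds of control. The MCS livers held 1124, 1252 and 2629 CPM, whereas the WT Cre livers held 17.8, 17.4 and 2.10 CPM. The H3.3 KO livers held 3.84, 83.5, 108 and 78.8 CPM. In 3 of the H3.3 KO livers the level was above all WT Cre livers and in all 4 it was below the MCS livers, so the sign of the difference depended on the control. The log2 fold change was 2.47 (SE 1.09) against WT Cre, -4.60 (SE 1.08) against MCS and -7.07 (SE 1.37) for WT Cre against MCS. FPKM also showed a gap between controls, with 70.1 to 195 in WT Cre and 2978 to 5932 in MCS livers, and H3.3 KO livers at 22.3 to 258. That gap was smaller than in counts, with a log2 ratio of mean FPKM of -4.80 for WT Cre against MCS. The Mup7 quotient of FPKM over counts was 10.0 to 32.9 in WT Cre and 2.71 to 2.93 in MCS livers. For H3.3 KO against WT Cre the log2 ratio of mean FPKM was only 0.27.

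Mup15 and Mup17, near-identical copies, were the members furthest below MCS in counts. In H3.3 KO livers Mup15 rested on 4 to 107 counts and Mup17 on 16 to 52. Mup17 stood at 1.04, 2.06, 1.69 and 0.956 CPM in H3.3 KO, at 21.5, 13.2 and 10.8 CPM in WT Cre and at 189, 82.9 and 266 CPM in MCS livers. Mup15 stood at 0.261, 1.70, 2.91 and 4.09 CPM in H3.3 KO, at 21.3, 15.5 and 9.80 CPM in WT Cre and at 143, 74.2 and 250 CPM in MCS livers. For each gene the 3 groups did not overlap, and MCS replicate 2 was the lowest of its group. The log2 fold changes of Mup17 were -3.38 (SE 0.46) against WT Cre and -6.94 (SE 0.50) against MCS, and those of Mup15 were -2.73 (SE 0.66) and -6.06 (SE 0.71). FPKM gave smaller differences, -1.22 and -4.30 for Mup17 and -1.46 and -4.62 for Mup15, and by FPKM Mup7 (-4.52) was further below MCS than Mup17. The Mup17 quotient of FPKM over counts was 15.5 to 46.3 in H3.3 KO livers and 5.10 to 9.73 in controls, so the difference between the tables was itself larger in H3.3 KO.

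Mup1, Mup2, Mup10 and Mup13 stood below 10 CPM in every H3.3 KO and WT Cre liver. In H3.3 KO livers Mup13 rested on 11 to 16 counts, Mup10 on 28 to 55, Mup2 on 46 to 98 and Mup1 on 25 to 196. Mup1 held 1.63, 7.75, 7.29 and 7.15 CPM in H3.3 KO, 7.59, 7.29 and 3.21 CPM in WT Cre, and 78.7, 74.4 and 139 CPM in MCS livers. In CPM its H3.3 KO and WT Cre livers overlapped (log2 fold change 0.01, SE 0.50) and lay far below MCS (-4.00, SE 0.50). In FPKM, however, the H3.3 KO livers (30.7 to 80.1) were all below the WT Cre livers (104 to 199), with a log2 ratio of -1.33. Against MCS the log2 ratio of mean FPKM was -3.98. Mup1 in H3.3 KO thus had a different relation to WT Cre in each table.

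Mup2 stood at 4.76, 3.87, 3.16 and 1.76 CPM in H3.3 KO, 7.88, 6.33 and 3.14 CPM in WT Cre, and 9.52, 14.0 and 16.2 CPM in MCS livers. Mup10 stood at 1.82, 1.90, 2.32 and 1.53 CPM in H3.3 KO, 5.46, 4.86 and 2.14 CPM in WT Cre, and 9.44, 8.30 and 13.2 CPM in MCS livers. Both overlapped WT Cre only through WT Cre replicate 3 and lay below all MCS livers. Their log2 fold changes were -0.79 (SE 0.36) and -1.13 (SE 0.30) against WT Cre and -1.98 (SE 0.36) and -2.44 (SE 0.29) against MCS. Mup13 stood at 0.717, 0.633, 0.548 and 0.497 CPM in H3.3 KO, 1.17, 1.47 and 0.675 CPM in WT Cre, and 13.2, 7.45 and 8.49 CPM in MCS livers. Its log2 fold change was -0.89 (SE 0.32) against WT Cre and -4.03 (SE 0.29) against MCS. In FPKM all 3 genes were below WT Cre in every H3.3 KO liver, with log2 ratios of -1.55 for Mup2, -1.34 for Mup10 and -1.69 for Mup13. Against MCS these ratios were -3.36, -2.44 and -3.43.

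**Figure D3:**
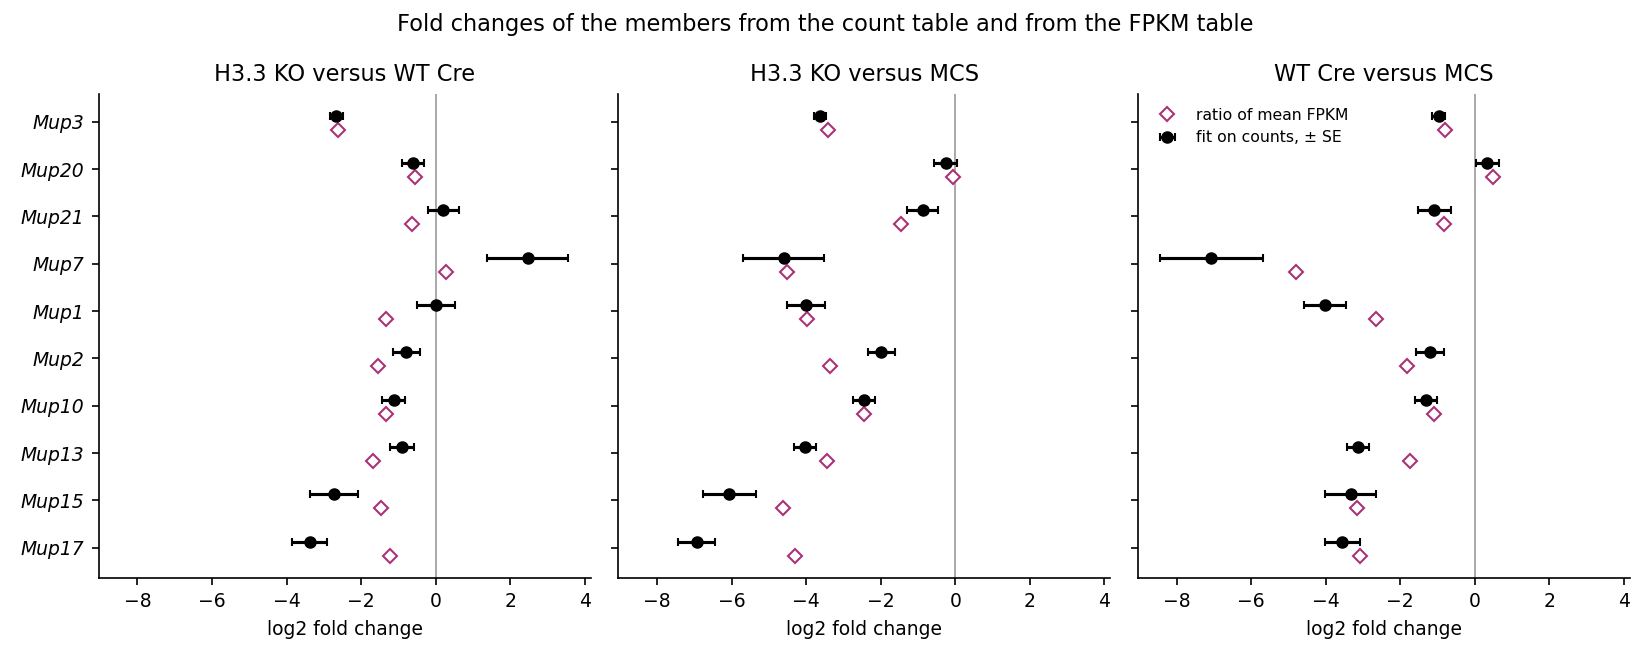
Log2 fold change of each member (x axis) for H3.3 KO against WT Cre, H3.3 KO against MCS and WT Cre against MCS. Filled points are fitted on counts with their SE, and open diamonds are log2 ratios of mean FPKM. Mup3 gave -2.66 and -2.61 against WT Cre from counts and FPKM, whereas Mup17 gave -3.38 and -1.22.

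The call used across all genes was an adjusted p under 0.05 with an absolute log2 fold change over 1 in edgeR's quasi-likelihood test, over 22449 genes with at least 10 counts in all, among them all 10 members. Against WT Cre, 4 of the 10 members (Mup3, Mup10, Mup15, Mup17) met it in the lower direction and 0 in the higher, where 5.33% of all genes were lower and 10.6% higher. Against MCS, 8 of 10 met it in the lower direction, all but Mup20 and Mup21, where 5.54% of all genes were lower and 11.9% higher. For WT Cre against MCS, 3 of 10 met it in the lower direction (Mup1, Mup13, Mup17), where 0.343% of all genes were lower and 0.298% higher. The count of members with every H3.3 KO liver below every control liver was 3 against WT Cre, beside 18.5% of all genes, and 8 against MCS, beside 17.8%. Every WT Cre liver was below every MCS liver for 9 members, beside 11.2% of all genes. In FPKM these counts were 7, 9 and 9 of 10, beside 15.4%, 9.01% and 4.63% of 18961 genes. As the members were selected on these contrasts, the counts describe them and are no test. The median log2 fold change of the members was -0.84 against WT Cre and -3.81 against MCS, and that of all genes was 0.02 and 0.01. Without WT Cre replicate 1, only 2 members (Mup3, Mup17) met the call against WT Cre, and without replicate 2, 3 did (Mup10 did not). The 2 KO comparisons share their H3.3 KO livers, and each control enters a pair of comparisons.

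Within groups, the spread of the members was set beside that of all genes. In H3.3 KO livers the highest over the lowest level, on the log2 CPM scale turned back to a ratio, was 27.5 for Mup7, 12.0 for Mup15 and 4.77 for Mup21, beside a median of 1.47 over 13210 genes, while Mup10 (1.49) and Mup13 (1.38) lay near or below that median. In WT Cre livers this ratio was 8.16 for Mup7 and 1.20 for Mup3, and the median gene stood at 1.18. In MCS livers Mup20 had the narrowest spread of the members, with a ratio of 1.07. In CPM, H3.3 KO replicate 1 was the lowest of its group for Mup1, Mup3, Mup7, Mup15 and Mup20 and the highest for Mup2, Mup13 and Mup21. In FPKM it was the lowest for every member except Mup21, so Mup2 and Mup13 stood at opposite ends in the 2 tables. This liver had the smallest library (14998426 counts, against 20862860 to 26096141 in the other 9 livers).

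**Figure D4:**
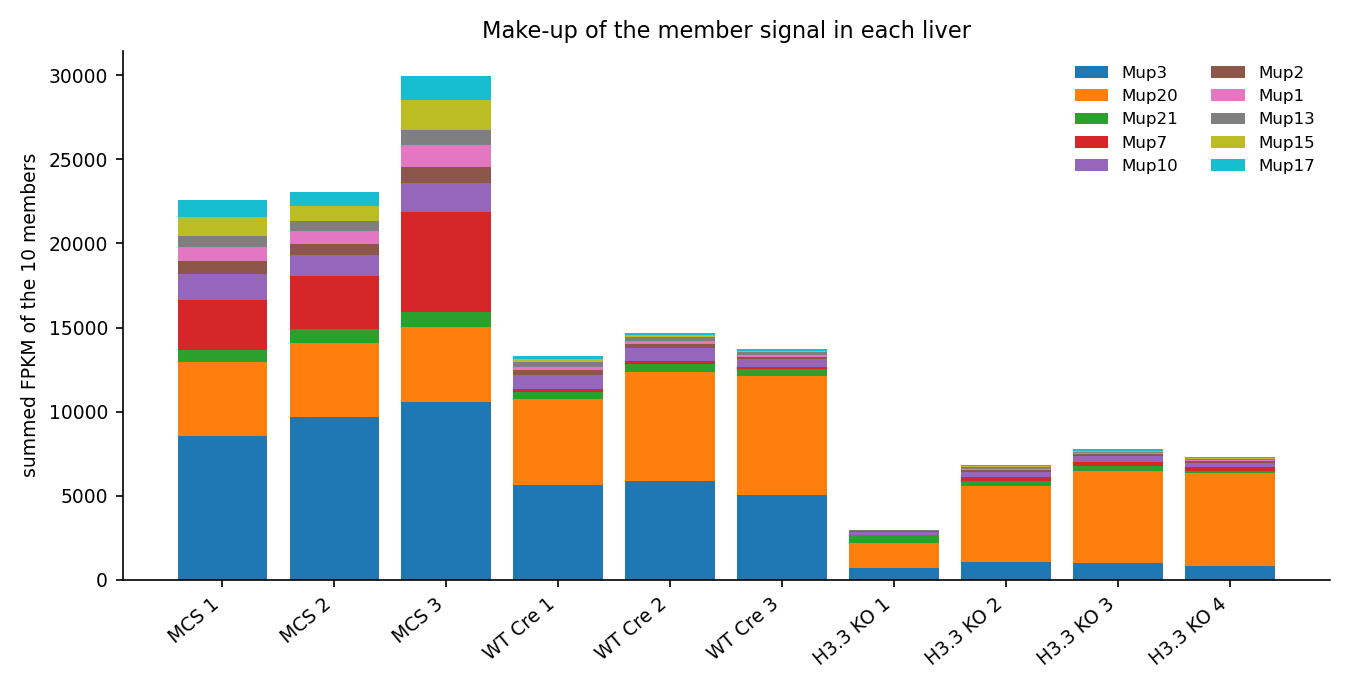
Summed FPKM of the 10 members in each liver (y axis), stacked by gene. The bars reach 22563 to 29961 FPKM in MCS, 13293 to 14696 in WT Cre and 2982 to 7754 in H3.3 KO livers, in which Mup20 makes up 50.8% to 75.9%.

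The make-up of the member signal also differed. Mup20 made up 50.8%, 65.6%, 70.5% and 75.9% of the members' summed FPKM in the H3.3 KO livers. Its share was 38.2%, 44.0% and 51.8% in WT Cre and 19.5%, 18.9% and 14.9% in MCS livers. Mup3 made up 23.2%, 15.8%, 13.1% and 11.4% in H3.3 KO, 36.6% to 42.5% in WT Cre and 35.4% to 42.1% in MCS livers. Mup7 made up 13.2% to 19.8% in MCS livers, at most 1.47% in WT Cre and at most 3.33% in H3.3 KO livers. Thus darcin made up most of the members' FPKM in H3.3 KO livers, and Mup3 made up less there than in any control. In counts, however, the share of Mup20 in the H3.3 KO livers was smaller, at 29.0%, 43.4%, 52.3% and 57.6%. Mup20 shared 38.84% of its 100-base words with Mup-ps19, a pseudogene outside the members. Mup-ps19 held 656 to 2681 FPKM in H3.3 KO, 2451 to 3544 in WT Cre and 2081 to 2147 in MCS livers. The FPKM of Mup20 can therefore depend on how reads were split with this copy.

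Of the 39 Mup symbols outside the members, the 12 genes that are not pseudogenes all had log2 fold changes below 0 against MCS, and 10 of the 12 were below 0 against WT Cre. Of these, 12 met the call in the lower direction against MCS and 5 against WT Cre, where 5.54% and 5.33% of all genes did. Mup22, with the most counts of them in WT Cre and H3.3 KO livers, stood at a mean of 38.7 CPM in H3.3 KO, 99.7 in WT Cre and 237 in MCS livers, a log2 fold change of -1.36 (SE 0.32) and -2.61 (SE 0.33). In FPKM each of the 12 was lower in every H3.3 KO liver than in every control of either kind. Such a gap was found for 15.4% of all genes against WT Cre and 9.01% against MCS. These genes share reads with the members, so they are not separate measurements.

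**Figure D5:**
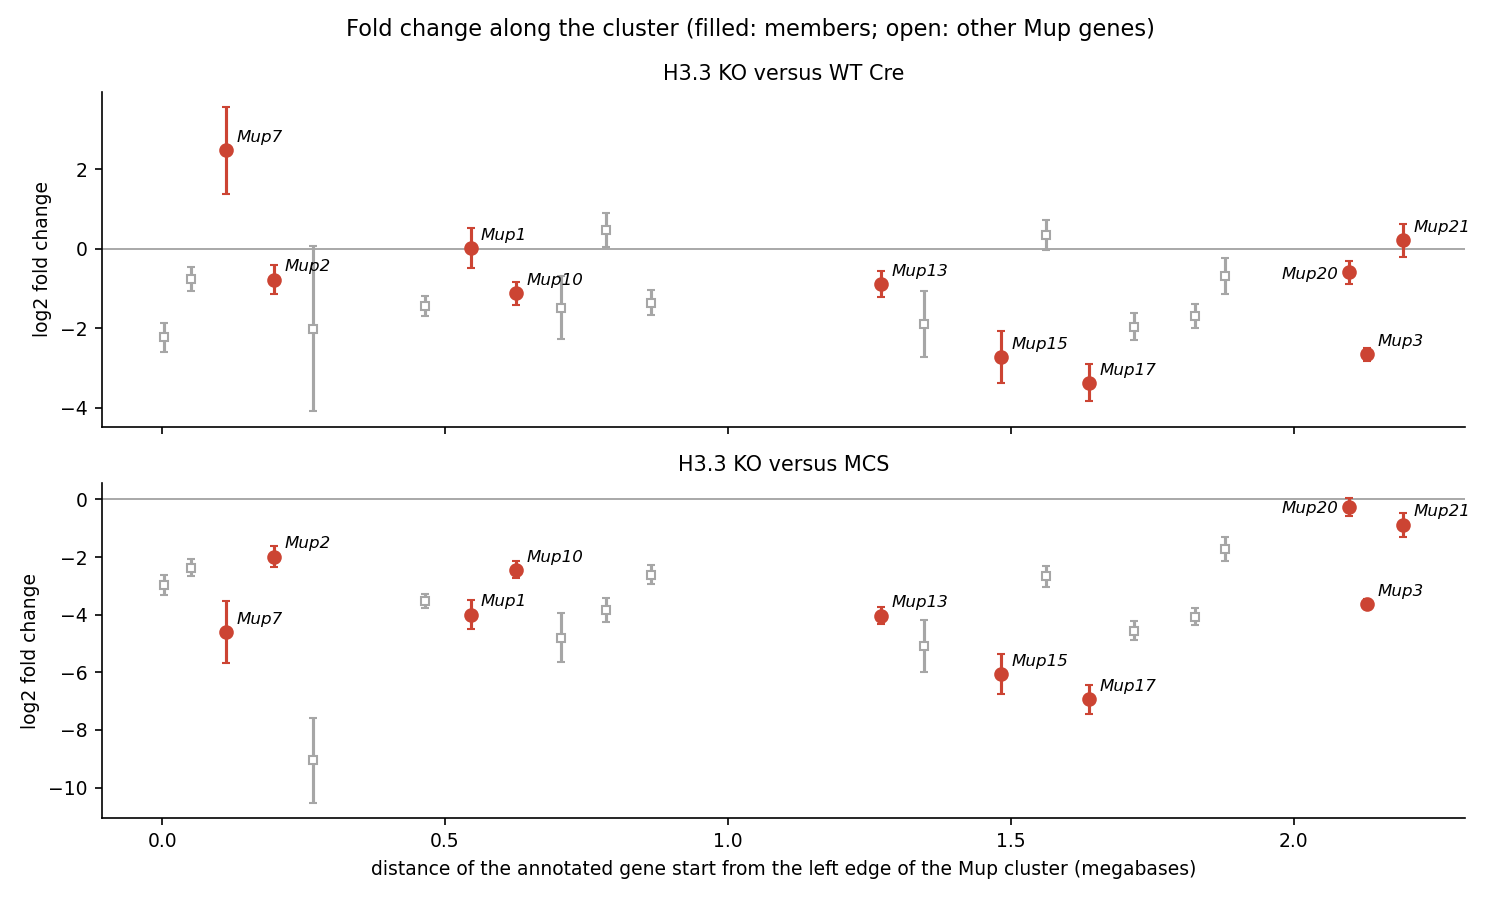
Log2 fold change with SE (y axis) for H3.3 KO against WT Cre and against MCS, by distance of the gene start from the left edge of the cluster in megabases (x axis), with members filled and the other 12 Mup genes open. Mup6, on the plus strand, is drawn at its gene end instead. Values are fitted on counts. Against MCS every gene lies below 0, Mup17 lowest of the members at -6.94 and Mup20 highest at -0.26.

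Genes at the borders of the cluster were not called. The 3 tested genes on its centromeric side, Inip, Gm12543 and Snx30, and the 3 on its telomeric side, Zfp37, Slc31a2 and Fkbp15, did not meet the call in any comparison. Against MCS their log2 fold changes ran from -0.29 (Fkbp15) to 0.50 (Gm12543), and against WT Cre from -0.21 (Fkbp15) to 0.31 (Inip). Gm12909, a gene model inside the cluster, had 15.9 CPM in WT Cre, 15.4 in MCS and 3.34 in H3.3 KO livers on average and was lower in H3.3 KO (log2 fold change -2.28 and -2.23).

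RefSeq promoter sequences (GRCm38.p6) matched 7 members (Mup2, Mup3, Mup7, Mup10, Mup15, Mup17, Mup21), and the other 3 were not matched. Windows of 250 bases before the RefSeq start were searched. These starts lie 39 bases inside the GENCODE gene for Mup17, 25 for Mup3 and 22 for Mup21, so the sequences shown for these 3 genes stop at the GENCODE start, Mup17 as the member furthest below MCS in counts, Mup3 as the member with most counts in the controls, and Mup21 as a gene whose promoter is close to that of Mup3 while its level was not. Capitals mark ATTGAT on either strand (printed as ATCAAT where it lies on the other), the core letters of the motif bound by Onecut factors such as HNF6.
Mup17, chr4:61595872-61596082, minus strand: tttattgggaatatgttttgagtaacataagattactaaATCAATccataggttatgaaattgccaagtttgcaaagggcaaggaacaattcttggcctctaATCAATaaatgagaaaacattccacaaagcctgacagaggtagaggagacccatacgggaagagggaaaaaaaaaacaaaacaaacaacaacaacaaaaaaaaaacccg
Mup3, chr4:62087343-62087567, minus strand: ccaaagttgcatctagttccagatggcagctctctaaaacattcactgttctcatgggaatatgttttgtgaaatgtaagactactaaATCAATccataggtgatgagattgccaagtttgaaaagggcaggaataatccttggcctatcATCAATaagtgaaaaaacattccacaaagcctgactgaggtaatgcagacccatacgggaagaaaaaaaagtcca
Mup21, chr4:62150864-62151091, minus strand: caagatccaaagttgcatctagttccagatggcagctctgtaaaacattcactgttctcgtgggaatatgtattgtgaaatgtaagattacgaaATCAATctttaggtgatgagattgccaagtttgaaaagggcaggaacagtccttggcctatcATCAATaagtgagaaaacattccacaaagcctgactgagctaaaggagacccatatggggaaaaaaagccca
Each of the 7 windows held these letters 2 times, whereas 6.72% of 32851 promoters of the same length held them at least once. The windows of Mup2, Mup10, Mup15 and Mup17 were 88.42% to 97.63% identical to each other, so their matches are not separate. All 250 bases of the Mup2 window lie inside its GENCODE gene. TTCNNNGAA, the letters of the STAT5 motif, was in none of the 7 windows and in 7.02% of all. Over these 250 bases Mup15 and Mup17 were 97.63% identical, and Mup3 and Mup21 were 89.06% identical. A match of letters is a description of the sequence and was not tested as a site.

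Genes whose levels followed the members over the livers were ranked by Pearson correlation of log2 CPM with the log2 of the members' summed CPM, among 7913 genes with at least 10 CPM on average. The 5 most alike were Wfdc21 (r = 0.987), Cyp27a1, a bile acid synthesis enzyme (0.986), CAAA01118383.1 (0.982), Trp53inp2 (0.981) and Slc27a2, a fatty acid transport protein (0.981). Wfdc21, the closest, stood at 31.2 to 52.5 CPM in H3.3 KO, 194 to 243 in WT Cre and 313 to 409 in MCS livers. The 5 most opposite were Atp9a (r = -0.988), Ano10 (-0.985), Slc35f2 (-0.979), Ap2a2 (-0.978) and Cyp3a11, a drug-metabolising cytochrome P450 (-0.976). The 10 livers fall into 3 groups that set these correlations, so they are a description with no p.

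Other genes of the pathways known to act on MUPs were counted by lists chosen with earlier results known. Beside these counts, and those of the lists and markers below, stand the shares over all genes tested. Against WT Cre 5.33% of all genes were called lower and 10.6% higher, and against MCS 5.54% and 11.9%. Of 12 growth hormone signalling genes, 1 met the call against WT Cre (Cux2, higher) and 2 against MCS (Cux2 higher, Igf1 lower). Igf1, the growth factor that growth hormone induces in liver, stood at 319 ± 29.4 CPM in H3.3 KO (SD, n = 4), 503 ± 52.3 in WT Cre and 668 ± 75.0 in MCS livers (log2 fold change -0.66 and -1.07, edgeR adjusted p = 0.00254 and 9.94e-05). The growth hormone receptor Ghr missed the call only by its fold change (log2 fold change -0.69 and -0.94, edgeR adjusted p = 0.0214 and 0.00356). Ghr stood at 404, 297, 254 and 184 CPM in the H3.3 KO livers, each below every control (442 to 569 CPM). Stat5b, the transcription factor downstream of Ghr, did not meet the call either (-0.33 and -0.29, edgeR adjusted p = 0.072 and 0.104). Cux2, a repressor normally found in female liver, rose from 0.708 CPM in WT Cre and 0.340 in MCS to 22.8 CPM. Among hormone receptors and liver transcription factors, Foxa3 was called higher against WT Cre (log2 fold change 1.29) but not against MCS (0.29). Foxa2 was called lower against MCS (-1.23) but not against WT Cre (-0.92). Hnf4a (-0.31 and -0.76) and Zbtb20 (0.13 and 0.16) did not meet the call.

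Of 22 female-biased liver genes, 13 met the call in the higher direction against WT Cre and 3 in the lower, and 13 and 2 did against MCS. Cyp2a4, a female-biased cytochrome P450, stood at 852 ± 440 CPM in H3.3 KO (SD, n = 4), 53.3 ± 52.7 in WT Cre and 1.75 ± 0.202 in MCS livers. Of 19 male-biased liver genes, 3 were lower and 7 higher against WT Cre, and 8 were lower and 3 higher against MCS. Elovl3, a male-biased fatty acid elongase, was lower in each comparison (log2 fold change -3.48 and -3.97), and Hsd3b5, a male-specific steroid enzyme, was lower than MCS (-5.36) but stood at 5.69 CPM beside 4.66 in WT Cre. Selenbp2, another male-biased gene, was called higher against WT Cre (3.59) but not against MCS (-0.03). It stood at 251 CPM in H3.3 KO, 20.8 in WT Cre and 256 in MCS livers on average. Hsd3b5 and Selenbp2 thus had a large gap between the kinds of control, as Mup7 did. The H3.3 KO mean was near WT Cre for Hsd3b5 and near MCS for Selenbp2.

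Markers of some other liver cells moved with the H3.3 KO group. Of 5 Kupffer cell markers, all 5 met the call in the higher direction against each control, and their summed level was 521 to 1164 CPM in H3.3 KO, 223 to 275 in WT Cre and 230 to 406 in MCS livers. Of 5 T and NK cell markers, 5 met it in the higher direction against WT Cre and 4 against MCS, with a summed level of 2.74 to 11.1 CPM in H3.3 KO, 2.08 to 2.60 in WT Cre and 1.83 to 2.52 in MCS livers. Of 5 stellate cell markers, 2 were higher against each control (summed 325 to 466 CPM in H3.3 KO, 171 to 182 in WT Cre and 151 to 192 in MCS livers). Of 5 cholangiocyte markers 1 was higher against each control, of 3 B cell markers 0 against WT Cre and 3 against MCS, and of 3 tested neutrophil markers 1 and 0. None of the 4 endothelial or 5 red blood cell markers met the call by edgeR or DESeq2. The 10 hepatocyte markers summed to 84270 to 104800 CPM in H3.3 KO, 120400 to 134400 in WT Cre and 146500 to 163200 in MCS livers, and 3 and 5 of them met the call in the lower direction. The part of these changes in the members' levels was not tested. Of 15 other abundant secreted liver proteins, 3 were lower and 2 higher against WT Cre and 4 were lower and 2 higher against MCS. Serpina3k, a protease inhibitor of plasma, was lower (log2 fold change -1.21 and -2.60) and Hpx, the haem carrier hemopexin, was higher (1.42 and 1.20). Of 9 tested lipocalins outside the MUPs, 0 were lower against WT Cre and 3 (Orm3, C8g, Orm1) against MCS, and Ptgds was higher against each.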

How the data were processed

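The authors deposited 2 tables of the 10 livers, whole-number counts per gene and FPKM per gene. Per the study's methods, reads were trimmed with Trim Galore, aligned with STAR to mm10 and counted with HOMER, whereas the submitters' processing notes list STAR, HTSeq and Cufflinks. The library kit was directional. The strand setting and the treatment of reads that match several places are not given in the sources used here, and they can bear on any member. The deposited counts summed to 14998426 to 26096141 per liver. The FPKM table, deposited by the authors, has blank cells, which were kept as missing.

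Counts were fitted with edgeR (4.0.16, R 4.3.3) by the quasi-likelihood test over all 3 groups, with TMM scaling and genes of at least 10 counts in all (22449 of 55421). Calls required a log2 fold change past 1 in size with a Benjamini-Hochberg adjusted p below 0.05. DESeq2 (1.42.0), limma (3.58.1) with voom or on log2(FPKM + pseudocount), other scalings and filters, pooled controls, a replicate block and leaving out each liver were alternatives. The fit was tested on simulated data. CPM were divided by TMM-scaled library sizes. Transcript words of 50, 75, 100 and 150 bases and coding identities were computed from GENCODE vM21 with Python and Biopython. The members and gene lists were chosen with earlier results of these data known. The text names all members, other Mup genes, the 5 genes most and least correlated with the summed members, 3 flanking genes on each side, and up to 4 called genes of the largest change per list plus Ghr, Stat5b, Hnf4a, Zbtb20 and Igf1. One gene of the list of hormone receptors and liver transcription factors is not reported here.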

Additional observations from a re-analysis of the deposited data

Results flagged for a closer look

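In the 4 H3.3 KO livers, 22 measures (CPM and FPKM of each member, and their sums) were searched for a liver far from the others by Dixon's ratio, the gap to the nearest liver over the range, with a 95% critical value of 0.829. Chance marks about 1 in 20 such groups, and 2 of the 22 were marked. Mup1 in replicate 1 was at 1.63 CPM, a ratio of 0.902, while the other 3 were at 7.15 to 7.75 CPM. Mup15 in replicate 1 was at 19.8 FPKM, a ratio of 0.860, while the other 3 were at 60.3 to 66.9 FPKM. Each is the same liver, which had the smallest library, and the cause was not tested.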

How the results depend on the processing

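Of the members' log2 fold changes, 7 of 10 kept one sign against WT Cre and 9 of 10 against MCS over 21 alternatives each, and 10 of 10 for WT Cre against MCS over 20. The exceptions were Mup7, Mup1 and Mup21 against WT Cre (3, 10 and 4 alternatives of the other sign) and Mup20 against MCS (1). Members called lower against WT Cre numbered 4, and 2 (Mup3, Mup17) with a replicate block. Leaving out 1 liver gave 2 to 6, with 2 without WT Cre replicate 1 and 6 without WT Cre replicate 3. Mup7 became 1 member called higher against WT Cre with DESeq2 and without H3.3 KO replicate 1. Members called lower in WT Cre against MCS numbered 3, and 5 with filterByExpr, 5 with voom, 6 with DESeq2 and 1 (Mup13) with the replicate block. Leaving out 1 liver gave 1 to 5, with 1 without WT Cre replicate 2 or 3 and 5 without H3.3 KO replicate 1. Over all genes, limma on log2(FPKM + 1) called 1095 against WT Cre (3566 by edgeR) and 1355 against MCS (3926). For WT Cre against MCS, 144 were called, 221 with the replicate block, 273 with only those groups fitted, 314 with DESeq2, 66 with limma on log2(FPKM + 1), and 66 to 259 leaving out 1 liver, the lowest without WT Cre replicate 3 and the highest without H3.3 KO replicate 1. The summed members from FPKM gave -1.16 against WT Cre and -2.02 against MCS, where counts gave -1.72 and -2.72. The cause of these shifts was not tested.

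No label says that the replicate numbers mark a shared animal or batch. Deviations of same-numbered livers correlated at -0.17 to 0.22 over 5000 genes, so the numbers were not taken to pair the livers. The replicate block called 3084 genes against WT Cre and 3432 against MCS, and 7 members lower against MCS. Counts of the near-identical copies depend on how shared reads were assigned.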

Other observations

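Mup-ps20, a pseudogene between Mup17 and Mup20, went the opposite way from the members and from most other Mup pseudogenes in counts. Of 19 tested Mup pseudogenes, 7 met the call in the lower direction and 1 in the higher against WT Cre, and 14 and 1 against MCS. Over all genes 5.33% were lower and 10.6% higher against WT Cre, and 5.54% and 11.9% against MCS. In FPKM all 19 had log2 ratios below 0 against each control. Mup-ps20 held 122, 157, 111 and 13.9 CPM in the H3.3 KO livers, 1.50, 0.520 and 0.119 CPM in WT Cre and 2.93, 5.04 and 5.25 CPM in MCS livers. Every H3.3 KO liver was thus above every control. In FPKM the same pseudogene stood at 10.6, 8.36, 7.47 and 4.17 in H3.3 KO, 6.29 to 9.58 in WT Cre and 20.6 to 33.2 in MCS livers, so the H3.3 KO livers overlapped WT Cre and lay below MCS. Mup-ps20 and Mup21 in counts were each at their lowest H3.3 KO level in replicate 4. These were chosen after their values were seen.

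Mup8, which is not a member, held 67, 2152 and 2772 counts in the MCS livers, while its FPKM there was 520, 450 and 772. A single MCS liver was thus far lower in counts and not in FPKM.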
